A study of Mus musculus with 14 samples.

Results

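The genes described here encode the constitutive proteasome, the protease complex that every cell uses to degrade ubiquitin-tagged proteins. They were taken by symbol: every gene called Psma, Psmb, Psmc or Psmd followed by a number, without the immunoproteasome subunits Psmb8, Psmb9 and Psmb10. This rule found 35 of the 22180 genes with a probe of their own. Symbols alone decided which genes belong, while a gene with several probes was read from the brightest on average. The set was chosen with earlier results of these data known. By role they were 7 alpha ring genes, 8 beta ring genes, 6 ATPases of the base, 3 other base subunits, 8 lid subunits and 3 chaperones that assemble the base. Psma4 lay only on probes that carry several gene symbols and was not analysed here.

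Flow cytometry was used to sort bone marrow cells that were Sca1-positive and Kit-negative from female NCR-NU mice, a nude strain that lacks a thymus. The 4 groups were old tumor-bearing (3 mice), young tumor-bearing (3), old cancer-free (5) and young cancer-free mice (3), each sample being labelled a biological replicate and measured on 1 array. Cancer-free mice had received Matrigel as the control, and the tumors were primary and matched in size. Ages in weeks and the kind of tumor are not given in the sources used here. From each sample 500 pg of total RNA was amplified and labelled with biotin, and the deposited log2 value of a gene measures its RNA on that array.

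The proteasome has a barrel-shaped 20S core and a 19S cap. In the core, outer alpha rings gate the entrance and inner beta rings hold the cutting sites. In the cap, a base of ATPases unfolds the substrate while the lid removes its ubiquitin chain. The subunits are made in matched amounts, and the transcription factor Nfe2l1 is known to raise their genes together when proteasome activity falls short. Immune cells can exchange the cutting beta subunits for the immunoproteasome's.

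Promoter windows show letters that such shared control could read. RefSeq windows on GRCm38.p6, from 250 bases before to 50 bases after the start of transcription, existed for 28 of the 35 genes, of which 27 were measured brightly enough to test. Windows of 3 genes are shown because their RNA gave p-values among the smallest in the comparisons below: Psmb5 at chr14:54617946-54618245 (minus strand), Psmd14 at chr2:61711444-61711743 (plus strand) and Psma6 at chr12:55398575-55398874 (plus strand, the second of its start sites). Each reads 5′ to 3′ along the gene, and capitals mark the motif searched.
Psmb5, core of the antioxidant response element, which Nfe2l1 and Nfe2l2 bind: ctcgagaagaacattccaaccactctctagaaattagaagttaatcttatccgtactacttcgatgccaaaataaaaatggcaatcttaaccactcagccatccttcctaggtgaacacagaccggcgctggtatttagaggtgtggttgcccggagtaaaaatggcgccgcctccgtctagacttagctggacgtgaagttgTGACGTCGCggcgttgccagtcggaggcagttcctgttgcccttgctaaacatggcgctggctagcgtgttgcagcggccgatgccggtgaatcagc
Psmd14, CCAAT box, bound by nuclear factor Y: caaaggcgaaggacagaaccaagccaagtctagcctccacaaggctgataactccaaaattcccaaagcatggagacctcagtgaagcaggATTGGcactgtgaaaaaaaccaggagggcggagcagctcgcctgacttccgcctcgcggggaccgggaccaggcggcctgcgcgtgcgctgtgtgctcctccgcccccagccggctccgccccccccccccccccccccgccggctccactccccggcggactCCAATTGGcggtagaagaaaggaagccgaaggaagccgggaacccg
Psma6, core of the ETS factor site: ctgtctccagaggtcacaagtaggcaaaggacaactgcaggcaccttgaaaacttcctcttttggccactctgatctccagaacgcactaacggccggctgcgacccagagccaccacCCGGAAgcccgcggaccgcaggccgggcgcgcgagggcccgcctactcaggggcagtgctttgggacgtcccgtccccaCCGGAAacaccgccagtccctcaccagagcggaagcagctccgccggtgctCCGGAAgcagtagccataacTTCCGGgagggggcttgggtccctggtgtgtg

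The letters searched, on both strands, were TGACNNNGC for the antioxidant response element core, CCAAT and TTCCGG, picked after counts of several strings had been seen. A proteasome gene counted if any of its windows matched (29 windows for 27 genes). The background counts single windows, whether or not the gene was expressed here, so the 2 shares are not fully alike. The ETS core lay in the windows of 15 of 27 proteasome genes (55.6%) and in 14.9% of all 32851 RefSeq windows of this length. The antioxidant response element core lay in those of 5 genes (18.5%) against 12.4% of all windows. CCAAT lay in those of 11 genes (40.7%) against 37.4%. In the Psmd14 window 2 CCAAT matches on opposite strands overlap each other, and no match overlapped another motif in the windows shown. A match describes letters and is no evidence of binding.

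Nearly the whole complex was expressed in the sorted cells. Of the 35 genes, 33 lay above the table's median (3.88 on the log2 scale) on at least 3 arrays and were tested, among 13805 genes in all. The other 2 lay below that level on all 14 arrays: Psma8, the alpha subunit of testis, had levels of 2.22 to 3.46, and Psmb11, the beta subunit of the thymic cortex, 2.90 to 3.85. Psma5, an alpha ring gene, was above it on 3 of 14 arrays, with levels of 1.86 to 5.41, and its second probe on 0 arrays. Psmb3, a beta ring gene, was above it on 13 arrays. Over the arrays the alpha subunit Psma7 lay between 8.82 and 10.21, the beta subunit Psmb4 between 8.47 and 9.82 and the lid subunit Psmd8 between 8.36 and 9.30. Of the base scaffolds, Psmd1 lay between 6.92 and 8.02 and Psmd2 between 6.45 and 7.30. A gene's median SD within groups was 0.342 log2 units over the 33 proteasome genes and 0.343 over all genes tested.

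Array medians lay between 3.81 and 3.93. As a check of the sort, Ptprc, the pan-leukocyte gene, averaged 10.57 ± 0.04 in old tumor-bearing, 10.76 ± 0.09 in young tumor-bearing, 10.99 ± 0.29 in old cancer-free and 10.84 ± 0.11 in young cancer-free samples (SD, n = 3, 3, 5 and 3). Kit RNA, the marker the cells were sorted to lack, averaged 6.0 ± 0.27, 6.62 ± 0.48, 5.50 ± 0.27 and 5.88 ± 0.55 log2 units in the same order, above the table's median in every group.

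**Figure D1:**
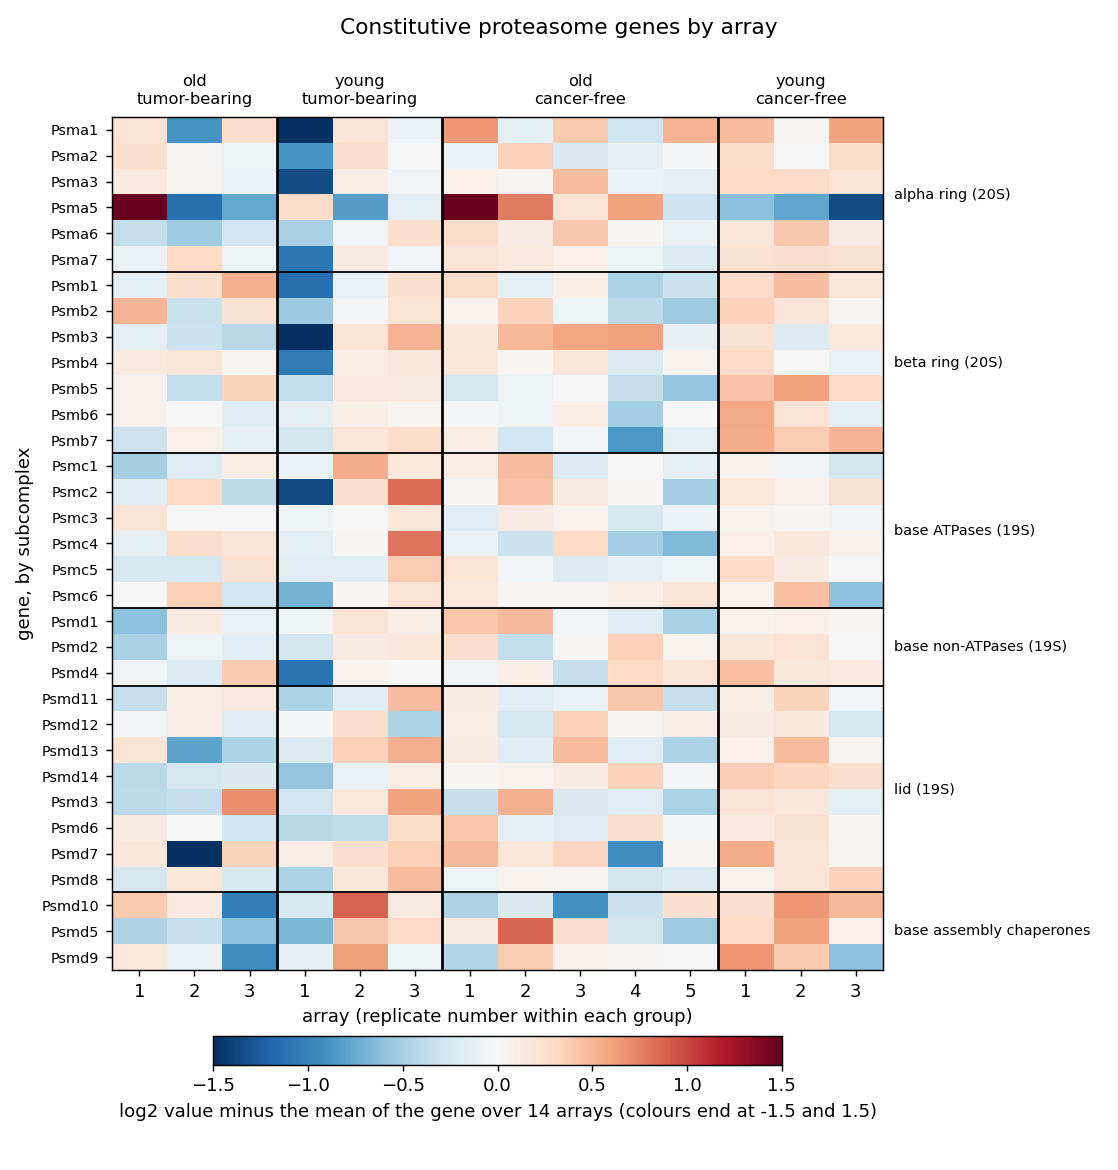
Each row is 1 of the 33 proteasome genes tested and each column 1 of 14 arrays, grouped by mouse group and by subcomplex. Colour is the log2 value minus that gene's mean over the arrays, with blue for lower values. Young tumor-bearing replicate 1 is below the gene's mean in 31 of 33 rows.

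One array stood apart and bears on every comparison that uses young tumor-bearing mice. In young tumor-bearing replicate 1 the proteasome genes were low across all subcomplexes: 31 of 33 lay below both other arrays of the group, against 37.3% of all genes tested. Over the 33 genes the median difference of this array from the mean of the other two was −0.61 on the log2 scale, against −0.02 over all genes. It held the lowest of the 14 values for 16 of the 33 genes (48.5%), against 11.6% of all genes.

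The alpha ring was lowest on this array. The median difference was −1.07 in the alpha ring, −0.63 in the beta ring, −0.51 in the ATPases, −0.41 in the other base subunits, −0.60 in the lid and −0.75 in the base chaperones. Psma1, an alpha ring gene, had 6.23 in replicate 1, against 8.36 and 8.08 in replicates 2 and 3. Psmb3 had 3.03 against 5.06 and 5.36. Psmc2, an ATPase, had 8.50 against 10.09 and 10.69 on its brighter probe. Its second probe lay between 7.56 and 8.75 over all 14 arrays, too narrow a range for a drop of that size. At the other end Psmc3, also an ATPase, differed by −0.15, and Psmd12, a lid subunit, by 0.08.

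Other gene groups moved on the same array. It had the lowest mean correlation with the other arrays, though by little (0.908, against 0.912 to 0.941). Of 22 oxidative phosphorylation genes 20 lay below both group mates (median difference −0.79), as did 12 of 15 ribosomal protein genes (−0.70) and 3 of 3 immunoproteasome genes (−0.49). Of 14 neutrophil markers 12 lay above both (median difference 1.06), and their mean level was 7.55 there. That level ranged from 5.66 to 6.21 over old tumor-bearing, 6.23 to 7.55 over young tumor-bearing, 5.30 to 7.38 over old cancer-free and 6.27 to 6.71 over young cancer-free arrays. The part of these in the low proteasome values was not tested. For comparisons that use this array, the count of the 33 genes below 0 and their median are given below with and without it. So are genes whose difference moved by over 1.5 times. Counts of groups that do not overlap, values above a stricter floor and some counts by unadjusted p are given with it only.

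**Figure D2:**
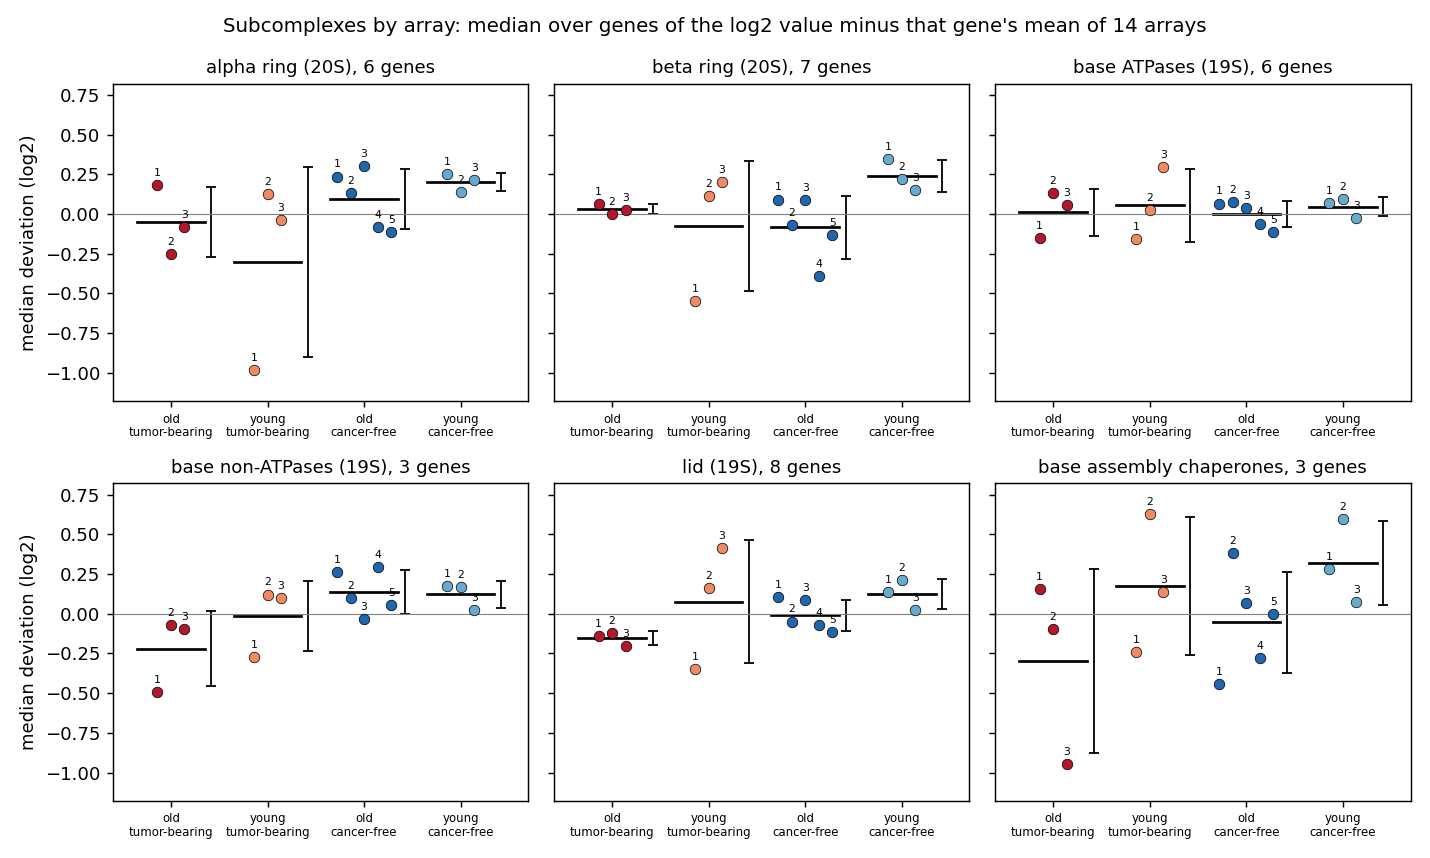
Points are arrays, numbered by replicate, and each panel is 1 subcomplex. The axis is the median over its genes of the log2 value minus the gene's own mean, with group means as lines and SD as bars. Young tumor-bearing replicate 1 is at −0.98 in the alpha ring and −0.54 in the beta ring, while all 3 young cancer-free arrays are above 0 in both.

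Age was compared first in mice without a tumor. Most proteasome genes had lower values in old than in young cancer-free mice, but 0 of 33 passed the test (limma, Benjamini-Hochberg adjustment over all 13805 genes, adjusted p under 0.05), where 0% of all genes passed. The smallest adjusted p of a proteasome gene was 0.522. The difference, old minus young, was below 0 for 28 of the 33 genes, against 55.5% of all genes, and its median was −0.19 on the log2 scale, against −0.04 over all genes. Dim genes lower that share: above a stricter floor of 5.48, 28 of 31 proteasome genes and 68.8% of all genes were below 0, with medians of −0.21 and −0.15. The arrays of the 2 groups overlapped in the median deviation of the 33 genes from their own means. It was 0.12, 0.05, 0.07, −0.13 and −0.11 on old cancer-free replicates 1 to 5. On young cancer-free replicates 1 to 3 it was 0.23, 0.20 and 0.04. By subcomplex the medians were −0.32 in the beta ring, −0.23 in the base chaperones, −0.21 in the lid, −0.17 in the alpha ring, −0.10 in the ATPases and −0.06 in the other base subunits. Their order is not firm: leaving out 1 array moved the base chaperone median between −0.52 and −0.09, the first when young cancer-free replicate 3 was dropped and the other when replicate 2 was. Dropping replicate 3 also brought the beta ring median to −0.49. In bulk samples, fewer cells of a type and less RNA per cell cannot be told apart.

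The cutting subunits Psmb5 and Psmb7 had the smallest p-values. Psmb5, the chymotrypsin-like site, had levels of 8.51, 8.71, 8.78, 8.42 and 8.20 in old cancer-free mice, against 9.22, 9.39 and 9.06 in young cancer-free mice. The groups did not overlap, and the difference was −0.70 ± 0.20 (SE; 95% interval −1.14 to −0.26; unadjusted p = 0.00404, adjusted p = 0.522 by limma). Psmb7, the trypsin-like site, had 8.46, 8.08, 8.33, 7.51 and 8.24 in old and 8.92, 8.75 and 8.88 in young cancer-free mice. All 5 old values lay below the young ones; the difference was −0.73 ± 0.22 (unadjusted p = 0.00447, adjusted p = 0.522 by limma).

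Psmb6, the caspase-like site, differed less clearly. It had 7.27, 7.23, 7.40, 6.79 and 7.30 in old and 7.86, 7.52 and 7.16 in the young, differing by −0.32 ± 0.19. The groups overlapped through the lowest young value. Psmb1, a beta subunit without a cutting site, differed by −0.42 ± 0.28.

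Psmd10, the base chaperone also called gankyrin, had 6.56, 6.79, 6.10, 6.69 and 7.26 in old and 7.25, 7.66 and 7.49 in young cancer-free mice. The groups overlapped only at the highest old and the lowest young value, and the difference was −0.78 ± 0.34. Psma5 ran the other way at 1.61 ± 0.62, from 5.41, 3.98, 3.40, 3.80 and 2.88 in old and 2.57, 2.42 and 1.86 in young cancer-free mice. Only 2 of these 8 values were above the table's median, and its second probe differed by 0.01.

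In all, 4 genes lay lower in every old than in every young cancer-free mouse, against 4.4% of all genes: Psmb5, Psmb7, the lid subunit Psmd8 and the alpha subunit Psma7. In the higher direction only Psma5 did, against 2.9% of all genes. At an unadjusted p under 0.05 there were 3 genes lower (5.17% of all genes) and 1 higher (2.48%). With cyclic loess normalization 22 of 33 genes were below 0 and the median was −0.08, against 51.6% and −0.01 over all genes.

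**Figure D3:**
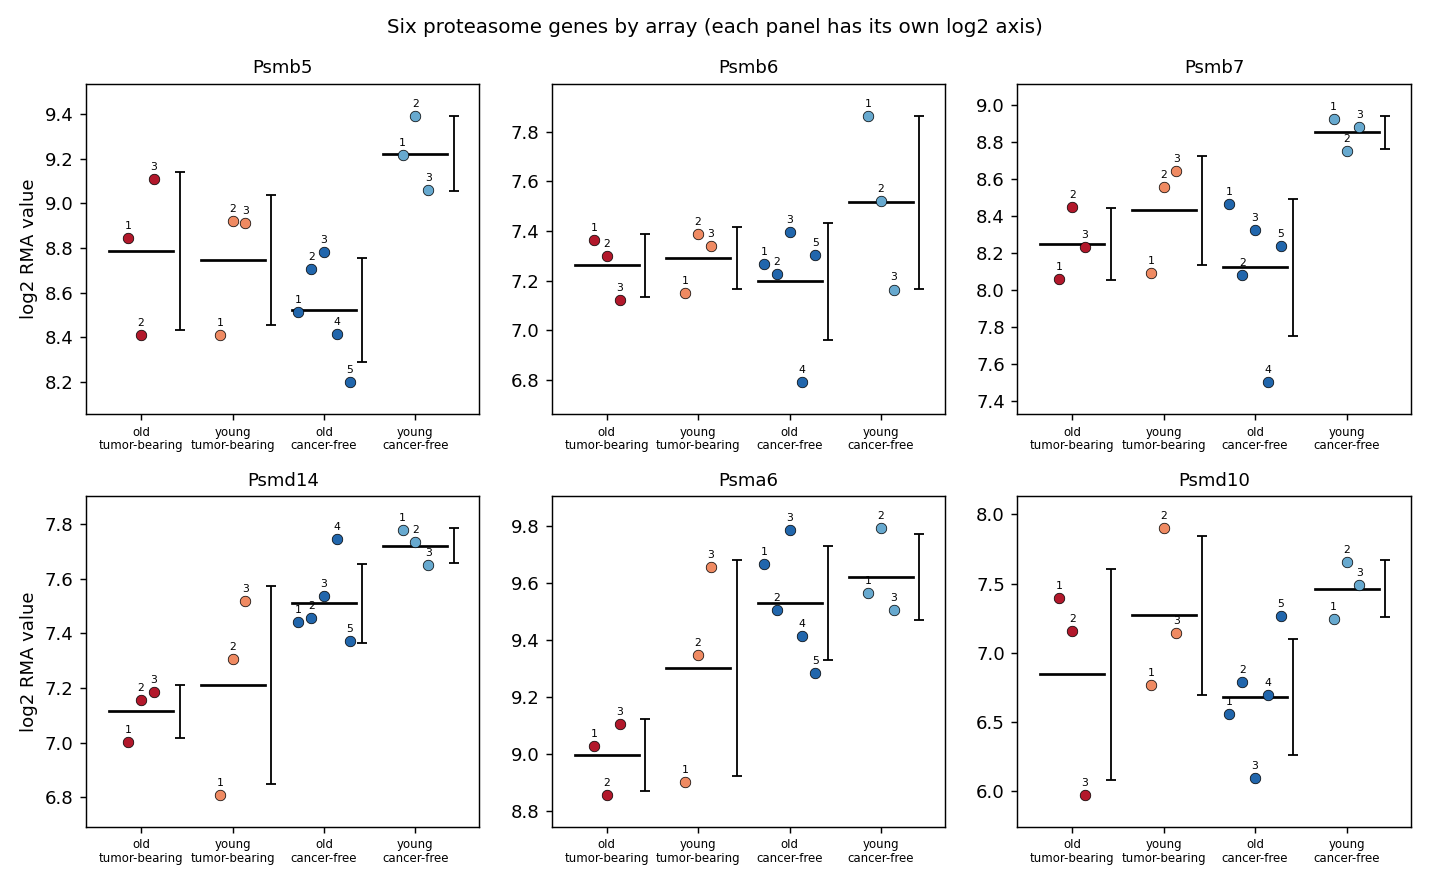
Log2 level of 6 proteasome genes on every array, numbered by replicate, with group means as lines and SD as bars. Psmb5 and Psmb7 are lower in all 5 old than in all 3 young cancer-free mice, and Psmd14 and Psma6 are lower in all 3 old tumor-bearing than in all 5 old cancer-free mice.

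In tumor-bearing mice the proteasome genes lay evenly around 0 between the ages. The difference, old minus young, was below 0 for 17 of 33 genes, against 49.5% of all genes, and its median was −0.0021, against 0.0044 over all genes. With limma 0 genes passed (0% of all genes), the smallest adjusted p being 0.529, and 0 reached an unadjusted p under 0.05 in either direction (6.35% of all genes lower, 3.75% higher). The age groups overlapped for every one of the 33 genes, where 7.1% of all genes lay wholly lower and 5.94% wholly higher. That count was not repeated without young tumor-bearing replicate 1, whose low values made some of the overlaps. Psma6 was at most 9.11 in old tumor-bearing mice, against 9.35 and 9.66 on the other arrays of young tumor-bearing mice. Psmd14 was at most 7.18 in the old, against 7.31 and 7.52 on those arrays. Without young tumor-bearing replicate 1 the difference was below 0 for 26 of 33 genes (51.5% of all genes), with a median of −0.20 against −0.01, and 6 genes were lower at an unadjusted p under 0.05 (6.52% of all genes), with 0 still passing.

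The genes with the smallest p were spread over the complex. Psmd13, a lid subunit, had 6.48, 5.49 and 5.82 in old and 6.07, 6.63 and 6.82 in young tumor-bearing mice, a difference of −0.58 ± 0.30. Psmb1 differed by 0.54 ± 0.31, the ATPase Psmc1 by −0.40 ± 0.23, the alpha subunit Psma3 by 0.45 ± 0.30 and Psma6 by −0.30 ± 0.21. Psmb1 came to 0.14 and Psma3 to −0.0046 without young tumor-bearing replicate 1.

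Psmd7, the lid partner of the deubiquitinase Psmd14, had 7.87, 5.63 and 8.03 in old and 7.81, 7.95 and 8.07 in young tumor-bearing mice. Its difference of −0.76 ± 0.51 came from old replicate 2, without which it was 0.01. The cutting subunits differed by 0.04 (Psmb5), −0.03 (Psmb6) and −0.18 (Psmb7). Without young tumor-bearing replicate 1 these were −0.13, −0.10 and −0.35, and Psma6 was −0.50.

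The tumor was compared within old mice and within young mice. In old mice 20 of 33 proteasome genes were lower in tumor-bearing than in cancer-free samples, against 48.7% of all genes, and the median difference was −0.04 on the log2 scale, against 0.01. Above the stricter floor it was 18 of 31 genes against 57.8% of all genes, with medians of −0.04 and −0.07, so the proteasome genes then lay near the background. With limma 0 genes passed (0% of all genes), and the smallest adjusted p was 0.423. At an unadjusted p under 0.05, 2 genes were lower (5.56% of all genes) and 0 higher (4.2%).

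Those genes were Psma6 and Psmd14. Psma6, of the alpha ring, had 9.03, 8.86 and 9.11 in old tumor-bearing mice, against 9.67, 9.50, 9.79, 9.42 and 9.28 in old cancer-free mice. The difference was −0.53 ± 0.19 (unadjusted p = 0.0128, adjusted p = 0.423 by limma). Psmd14, the deubiquitinase that strips ubiquitin from substrates as they enter, had 7.0, 7.16 and 7.18 in old tumor-bearing and 7.44, 7.45, 7.53, 7.75 and 7.37 in old cancer-free mice, a difference of −0.40 ± 0.17. Both, with Psmb3 (−0.65 ± 0.40), were lower in every tumor-bearing than in every cancer-free old mouse, against 3.04% of all genes, and 0 genes were higher that way, against 3.11%. The base chaperone Psmd5 differed by −0.56 ± 0.31, the base scaffold Psmd2 by −0.31 ± 0.19 and the ATPase Psmc4 by 0.36 ± 0.24.

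In young mice 26 of 33 genes were lower in tumor-bearing than in cancer-free samples, against 52.8% of all genes, with a median of −0.22 against −0.02. Above the stricter floor it was 25 of 31 against 64.7%, with medians of −0.22 and −0.12. With limma 0 passed (0% of all genes), and the smallest adjusted p was 0.886. The alpha ring (−0.48) and the beta ring (−0.42) had the lowest medians, and the ATPases the one nearest 0 (−0.05). This rested on the array that stood apart: without young tumor-bearing replicate 1 the median was 0.02 and 15 of 33 genes were below 0 (51.7% of all genes), with 0 at an unadjusted p under 0.05. The alpha ring, beta ring and ATPase medians were then −0.15, −0.15 and 0.24, while without replicate 3 the median of all 33 was −0.45.

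Psmd14 had 6.81, 7.31 and 7.52 in young tumor-bearing and 7.78, 7.73 and 7.65 in young cancer-free mice. The groups did not overlap, with a difference of −0.51 ± 0.19 (unadjusted p = 0.0188, adjusted p = 0.886 by limma), and −0.31 without replicate 1. Psma3 differed by −0.69 ± 0.30, Psma7 by −0.57 ± 0.27, Psmb1 by −0.64 ± 0.31 and Psmb5 by −0.48 ± 0.23. Psmd4, the base's ubiquitin receptor, differed by −0.61 ± 0.29. Without replicate 1 these came to −0.23, −0.19, −0.24, −0.31 and −0.23.

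In young mice 6 genes were lower in every tumor-bearing than in every cancer-free sample, against 7.37% of all genes, and 0 were higher, against 5.56%. They were Psmd14, Psma3, Psma7, Psmd4, Psmb5 and Psmb7. At an unadjusted p under 0.05, 2 were lower (3.3% of all genes) and 0 higher (2.1%). For Psmc2 the 2 probes differed in direction, −0.24 on the brighter and 0.02 on the other, and the brighter came to 0.39 without replicate 1.

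**Figure D4:**
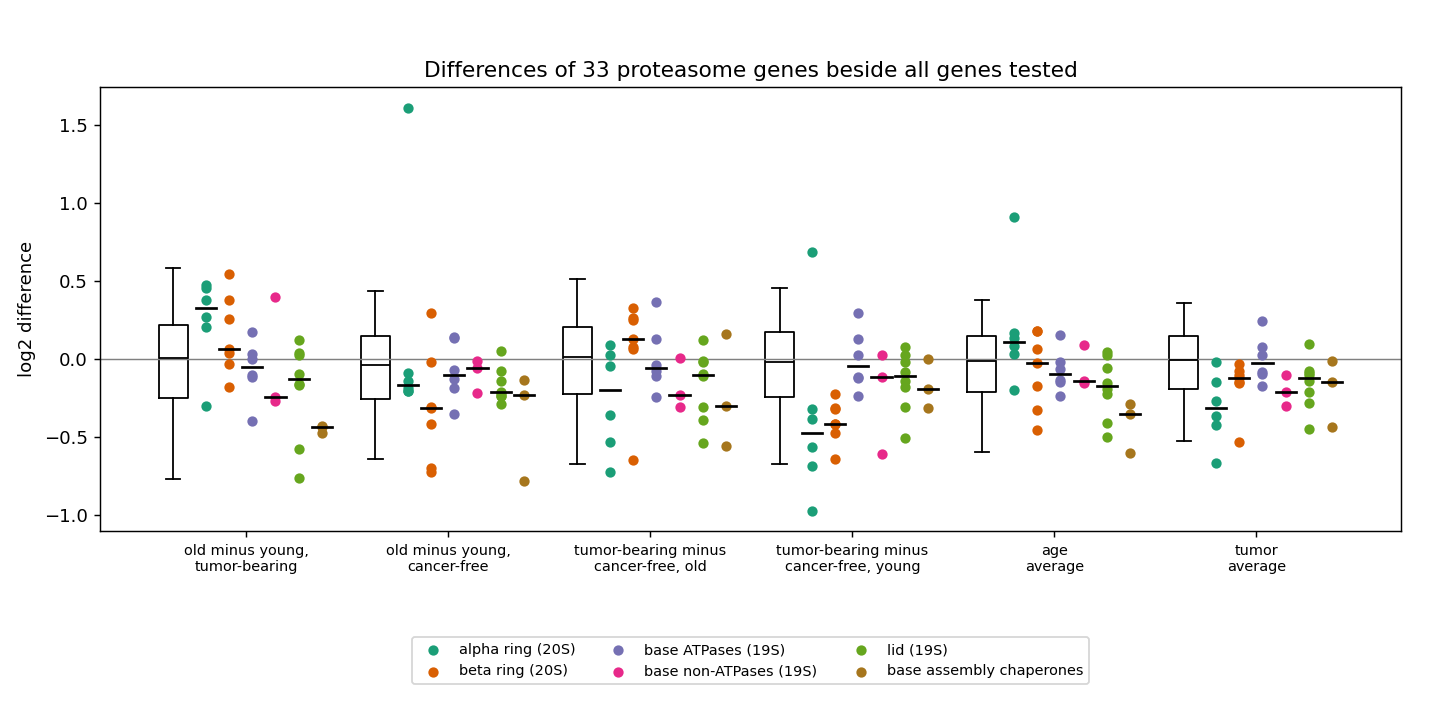
Each point is the log2 difference of 1 proteasome gene in 1 comparison, coloured by subcomplex with the subcomplex median as a black bar. Boxes give the quartiles of all 13805 genes and whiskers their 5th and 95th percentiles. Points lie mostly below 0 for age in cancer-free mice (28 of 33, against 55.5% of all genes). They do so too for the tumor in young mice (26 of 33, against 52.8%), but for 15 of 33 without young tumor-bearing replicate 1. Both comparisons subtract the same 3 young cancer-free arrays, so they are not independent.

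Averaged over both ages, 29 of 33 genes were lower in tumor-bearing mice, against 51.1% of all genes, with a median of −0.14 against −0.01. Above the stricter floor it was 27 of 31 against 65.3%, with medians of −0.14 and −0.10. With limma 0 passed (0% of all genes; smallest adjusted p 0.337). Psmd14 (−0.45 ± 0.13, unadjusted p = 0.00342 by limma) and Psma6 (−0.43 ± 0.14, unadjusted p = 0.00886 by limma) were the 2 genes at an unadjusted p under 0.05, against 6.01% of all genes lower and 4.23% higher. Psma1 (−0.67 ± 0.32), Psmd5 (−0.44 ± 0.23), Psma3 (−0.36 ± 0.20) and Psmb3 (−0.53 ± 0.30) followed. For 0 genes were all tumor-bearing mice apart from all cancer-free mice, against 0.145% of all genes lower and 0.123% higher. Without young tumor-bearing replicate 1 the median was −0.04 and 20 of 33 genes were below 0, against 50% of all genes. Psmd14 then stood at −0.35, Psma6 at −0.33, Psma1 at −0.34, Psmd5 at −0.27, Psma3 at −0.14 and Psmb3 at −0.17.

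Averaged over tumor status, 21 of 33 genes were lower in old mice, against 52% of all genes, with a median of −0.13 against −0.01. Above the stricter floor it was 21 of 31 against 65.1%, with medians of −0.14 and −0.11, and with cyclic loess 17 of 33 against 50.4%, with a median of −0.03. With limma 0 passed, where 0.0869% of all genes did, and the smallest adjusted p was 0.248. At an unadjusted p under 0.05, 3 genes were lower (8.97% of all genes) and 0 higher (4.44%): Psmb7 (−0.46 ± 0.16), Psmd10 (−0.61 ± 0.25) and Psmb5 (−0.33 ± 0.15). Psmd13 (−0.41 ± 0.20), Psma5 (0.91 ± 0.47) and Psmd5 (−0.35 ± 0.23) followed. The 3 base chaperones were all below 0, Psmd9 at −0.29. For 0 genes were all old mice apart from all young mice, against 0.398% of all genes lower and 0.13% higher. Without young tumor-bearing replicate 1, 30 of 33 genes were below 0 (53.3% of all genes) with a median of −0.19, and 8 were lower at an unadjusted p under 0.05 (9.65% of all genes).

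The tumor difference was also compared between the ages, as old minus young. With limma 0 of 33 genes passed (0% of all genes; smallest adjusted p 0.976), and 2 were above 0 at an unadjusted p under 0.05 (2.57% of all genes), with 0 below (1.85%). They were Psmb1 (0.96 ± 0.42) and Psmb5 (0.74 ± 0.31). Psmc1 (−0.54 ± 0.31), Psmb7 (0.55 ± 0.32), Psma7 (0.59 ± 0.36) and Psmd4 (0.61 ± 0.39) came next. Of the 33 genes 11 were below 0, against 47.6% of all genes. The median over the 33 genes was 0.13. Without young tumor-bearing replicate 1, 19 of 33 were below 0 (48.2% of all genes) with a median of −0.04, and neither Psmb1 (0.56) nor Psmb5 (0.57) reached an unadjusted p under 0.05. Psma7 was then 0.21 and Psmd4 0.24. At that threshold 1 of 33 genes, Psmb3, was below 0, beside 1.85% of all genes in the fit with that array. Psmb3 is dim, above the table's median on 13 arrays.

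The precision sets what these comparisons could show. A proteasome gene's median SE was 0.18 log2 units for the averages, 0.24 for age without a tumor and for the tumor in old mice, 0.27 for the comparisons within tumor-bearing or within young mice, and 0.37 for the difference between ages. The 95% interval lay within 1 log2 unit of 0 for 30 and 29 of 33 genes in the age and tumor averages. For age it did so for 25 genes without a tumor and 22 with one, and for the tumor it did so for 22 genes in young mice and 28 in old mice. For the difference between ages it did so for 12.

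Genes that build, cap or control the proteasome gave 0 calls in any comparison. Of all genes 0.0869% passed in the age average and 0% in every other comparison. Among the 5 assembly chaperones of the 20S core, all were below 0 for age in cancer-free mice (55.5% of all genes), with a median of −0.65. Psmg2, which pairs with Psmg1 to start the alpha ring, had 6.17, 5.68, 5.64, 6.17 and 6.03 in old and 6.81, 6.74 and 6.97 in young cancer-free mice. These did not overlap, with a difference of −0.90 ± 0.26 (adjusted p = 0.522 by limma). Psmg3 differed by −0.65 ± 0.28 there.

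Psmg1 differed by −1.27 ± 0.47 log2 units between tumor-bearing and cancer-free mice averaged over ages (adjusted p = 0.406 by limma). It had 5.31, 3.82 and 5.65 in old tumor-bearing, 3.08, 6.03 and 6.53 in young tumor-bearing, 5.36, 5.97, 5.53, 6.44 and 6.14 in old cancer-free and 7.0, 6.77 and 6.59 in young cancer-free mice. The lowest of these was again young tumor-bearing replicate 1, without which the difference was −0.73.

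The immunoproteasome subunits, the inducible counterparts of the cutting subunits, were measured on every array. Psmb8 averaged 8.30 ± 0.08 in old tumor-bearing, 8.31 ± 0.32 in young tumor-bearing, 8.44 ± 0.20 in old cancer-free and 8.43 ± 0.13 in young cancer-free mice (SD, n = 3, 3, 5 and 3). Psmb9 averaged 10.03 ± 0.20, 9.77 ± 0.82, 9.94 ± 0.22 and 10.15 ± 0.20 in the same order, with 8.82 on young tumor-bearing replicate 1. For the tumor in young mice all 3 were below 0 (52.8% of all genes), with a median of −0.38 with that array and 0.04 without it. Psmb10, the counterpart of Psmb7, differed by −0.37 ± 0.21 for age in cancer-free mice. In no comparison did any of the 3 reach an unadjusted p under 0.05. Over the comparisons 1.85% to 8.97% of all genes did so as lower and 2.1% to 4.44% as higher. Among activators and inhibitors, Psme1 was −0.34 ± 0.15 for the tumor average (−0.22 without that array) and the inhibitor Psmf1 −0.53 ± 0.20 for the age average. Psme2 was 0.61 ± 0.24 for age in tumor-bearing mice.

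Nfe2l1 had 7.52, 7.35 and 7.05 in young tumor-bearing and 6.98, 6.87 and 6.57 in young cancer-free mice. The groups did not overlap, with a difference of 0.50 ± 0.20 (adjusted p = 0.886 by limma), and 0.39 without young tumor-bearing replicate 1. Ngly1, the glycosidase that activates the Nfe2l1 protein, was −0.50 ± 0.23 for the tumor average. Nploc4, a cofactor of the p97 unfoldase, was −0.48 ± 0.18 for age in cancer-free mice.

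Other lists moved beside the age difference. All 22 cell cycle genes tested were below 0 for age in cancer-free mice (median −1.02), where 55.5% of all genes were. Their mean level ranged from 5.37 to 6.53 over old and from 6.81 to 7.08 over young cancer-free arrays. In the age average 2 of the 22 passed as lower, where 0.0869% of all genes passed. Markers of plasmacytoid dendritic cells were below 0 in 13 of 14 (median −0.89), with mean levels of 6.04 to 7.59 in old and 7.19 to 8.20 in young cancer-free mice. Markers of monocytes and macrophages were below 0 in 9 of 9 (median −0.57), and 1 of them passed as lower in the age average. Their mean level was 6.30 to 7.29 in old and 6.92 to 7.42 in young cancer-free mice. Oxidative phosphorylation genes were below 0 in 21 of 22 (median −0.26), while T cell markers were above 0 in 9 of 12 (median 0.13). For the tumor in young mice, 11 of 12 T cell markers were below 0 (median −0.82, and −0.61 without young tumor-bearing replicate 1). Their part in the proteasome values was not tested.

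**Figure D5:**
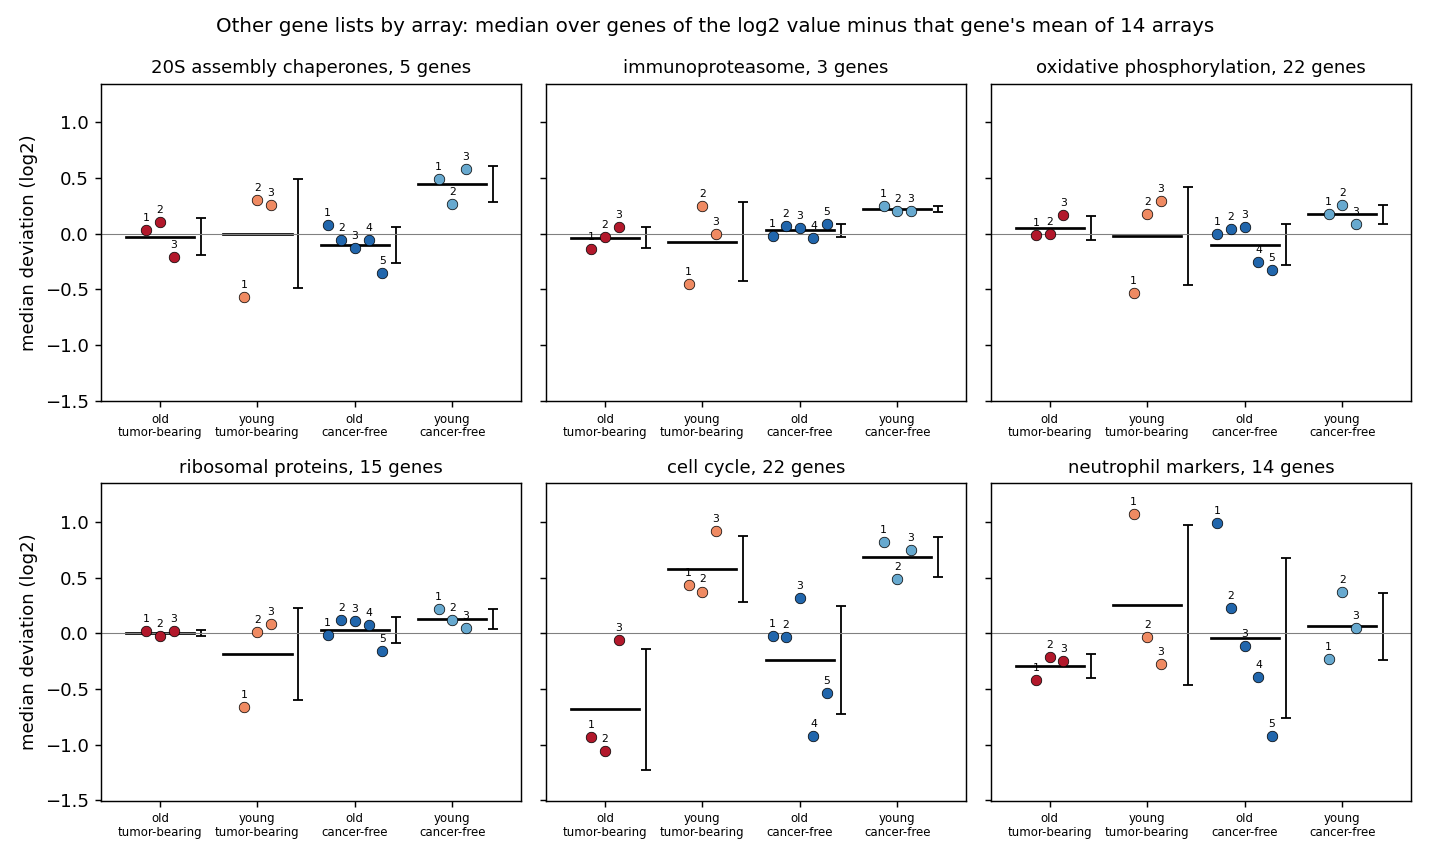
Points are arrays, numbered by replicate, in panels for lists other than the proteasome, on the same axis as the subcomplex plot. Cell cycle genes are higher on all 3 young than on all 5 old cancer-free arrays, and neutrophil markers are highest on young tumor-bearing replicate 1 at 1.07.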

How the data were processed

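Per the labels, total RNA from each sample was amplified with a whole-transcriptome system and hybridised to 1 array. Per the submitters' processing notes, the deposited log2 values came from RMA (oligo 1.32.0, R 3.2.0). The log2 scale is inferred from their range, 0.29 to 13.78. Which arrays were normalized together, and the array's genome build, are not given in the sources used here.

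Of 41345 probes, 23521 carried 1 gene symbol and 1814 several. For 1082 genes with several probes the brightest on average was used. Genes above the table's median (3.88) on at least 3 arrays were tested. All 4 groups were fitted together in limma 3.58.1 under R 4.3.3 (residual degrees of freedom 10, prior 3.86), with 7 two-sided contrasts. The fit was tested on simulated data. Named were the 6 genes of smallest p per contrast, the cutting, base, Psmd14, chaperone and tissue-specific subunits, and for related lists genes of smallest p. Members and lists were chosen with earlier results of these data known. Subcomplexes were summarised per array by the median, after means had been seen to follow the dim Psma5. Alternatives covered filters, normalization, array weights, probe choice, the replicate block and leaving out each array.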

Additional observations from a re-analysis of the deposited data

Results flagged for a closer look

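Old cancer-free mice were the only group large enough for a check of single arrays, and 47 values were checked there, of which 2 had 1 array far from the other 4. Chance flags about 1 in 20 such values. Psmb6, the caspase-like beta subunit, was 6.79 on old cancer-free replicate 4, against 7.23 to 7.40 on the others. The mean deviation of the 3 base chaperones was 0.35 log2 units on old cancer-free replicate 2, against −0.25 to −0.09 on the others. By the median over the same genes, the summary used in the report, that array was not set apart.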

How the results depend on the processing

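Of 330 values recomputed for the called counts and the median differences of the 7 comparisons, 327 kept their side of the threshold or moved by less than the spread between replicates, and 0 proteasome genes passed in any alternative. The 3 others concern leaving out 1 array: the median for age in tumor-bearing mice ranged from −0.20 to 0.10, and that for the tumor in young mice from −0.446 to 0.0202. The spread used as the limit was larger than most of the 7 medians, so a median could change sign and still count as kept. Called counts were 0 in the report as well, so keeping them says little about the differences. Of 1252 values for single genes (the 6 of smallest p in each comparison and 14 others whose differences are printed) 1243 kept their direction, and 9, all for age in tumor-bearing mice, did not. Over left-out arrays Psmd7 ranged from −1.19 to 0.00918, Psma3 from −0.00459 to 0.723, Psmb5 from −0.128 to 0.230 and Psmb6 from −0.102 to 0.0398. Psmb5 was also −0.00741 with median centring and −0.0354 with array weights, and Psmb6 0.0506 with cyclic loess. The cause was not tested. The median for age in cancer-free mice ranged from −0.26 with median centring, where the median of all genes was −0.11, to −0.08 with cyclic loess. That for the tumor in old mice was 0.0024 with cyclic loess. Among all genes, 0 to 80 passed for the age average over the alternatives, 12 in the report. Leaving out Psma5 was chosen after seeing the data and left 28 of 32 genes below 0 for age in cancer-free mice. Groups share replicate numbers, and 18 same-numbered pairs of arrays correlated by −0.08 to 0.09 after group means were removed. Whether equal numbers mark mice handled together is not given in the labels, and correlations this weak cannot decide it. With the replicate number as a block 0 genes passed, and the median was −0.09 for age in cancer-free mice and −0.18 for the tumor average. Numbers 4 and 5 occur only in old cancer-free mice, so the block takes those arrays out of the differences. Its effect and their loss cannot be told apart. A fit to only the groups compared was not run for the averages and the difference between ages, which use all groups. Signal over background limits Psma5 and Psmb3, and groups of 3 to 5 arrays limit the rest.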
